A study of Mus musculus with 12 samples.

Results

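Cytosolic ribosomal protein genes encode the proteins of the ribosome that translates mRNA made in the nucleus. They were chosen by name: symbols that start with Rpl or Rps and a digit, plus Rplp0, Rplp1, Rplp2 and Rpsa, without the Rps6k kinases and the pseudogenes. Of 19938 genes with a value, 63 met this rule. Of these, 33 encode proteins of the large subunit and 21 proteins of the small subunit. Another 8 are paralogs or near copies of such genes (Rpl3l, Rpl7l1, Rpl10l, Rpl32l, Rpl39l, Rps4l, Rps27l and Rps23rg1). The remaining symbol, Rps19bp1, met the rule by its spelling and encodes a protein that binds Rps19, not a ribosomal protein. Each gene was read from its brightest probe set that names no other gene. Of the 63, 60 were tested, and Rpl3l, Rpl10l and Rpl39l were too dim. A further 20 ribosomal protein symbols occurred only on probe sets that name several genes, so they are not among the 63 and are described apart.

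RNA came from the 2 kinds of conventional dendritic cell, cDC1 and cDC2, in their mature form, which were sorted out of digested spleens of mice at steady state. It was hybridised to 12 GeneChip arrays of 1 colour. The mice were wild type (WT), Flt3 knockout (KO) or Flt3L KO. Flt3 is a receptor tyrosine kinase on dendritic cells and their precursors, and Flt3L is its ligand, a growth factor for this lineage. Each of the 6 groups had 2 biological replicates, and no treatment was given. The labels name no strain, age, sex or knockout allele, and do not say how many mice an array stands for, so p-values measure only the spread between these arrays.

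The ribosome is built from a large and a small subunit, each a core of ribosomal RNA covered by ribosomal proteins that are needed in nearly equal numbers. Many mRNAs for ribosomal proteins and translation factors start with a C followed by a run of pyrimidines, the terminal oligopyrimidine (TOP) tract. This tract lets mTOR, a kinase that senses growth factors and nutrients, raise or lower their translation together through proteins such as Larp1. Flt3 is one of the receptors that signal to mTOR in dendritic cells.

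Start sites are printed here for 4 members named below, to show annotated starts with and without a match to the TOP tract. Each line runs from 15 bases before to 15 bases into the RefSeq transcript (mouse build GRCm38.p6), and capitals mark a tract of C and at least 4 further pyrimidines that begins at the annotated start.
Rpl28, chr7:4792950-4792979, plus strand: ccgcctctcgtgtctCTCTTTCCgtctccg
Rpl14, chr9:120571502-120571531, plus strand: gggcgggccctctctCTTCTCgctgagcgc
Rpl38, chr11:114668565-114668594, plus strand: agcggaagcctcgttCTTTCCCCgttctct
Rps27l, chr9:66946071-66946100, plus strand: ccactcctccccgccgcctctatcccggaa
The first 3 begin with such a tract, and the paralog Rps27l has none exactly at this start or at its other annotated one, though a tract begins within 5 bases of this one. Rpl10a, Rps3, Rplp0 and Rpl36a, also named below, had none at or within 5 bases of an annotated start. Of the 54 subunit genes, 43 had a start window, and 9 of the 43 (20.9%) held the tract exactly at an annotated start, against 3.01% of the 27025 genes with a window. With the tract allowed to begin up to 5 bases away, the shares were 37.2% and 21.2%. None of 69 mitochondrial ribosomal protein genes held it at the start, and 17 (24.6%) held it within 5 bases. A match or its absence describes these letters at the annotated start only. Which starts these cells use was not tested, so a missing match does not show that an mRNA lacks the tract.

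Members lay mostly at the bright end of the arrays. Their mean log2 intensity had a median of 12.18, against 6.75 for the 14953 genes tested, and 49 of 63 were within the brightest 5% of genes. Of the 302 brightest probe sets, the top 1%, 164 (54.3%) named a ribosomal protein gene. The median was 12.11 for large subunit genes, 12.79 for small subunit genes and 6.92 for the paralogs. These are signals of different probe sets, which respond differently to the same RNA, so they give no order of RNA amounts. The 3 brightest were Rps14, Rps21 and Rps12, all of the small subunit. Rps14 had intensities of 10820 and 11270 in WT cDC1, 11520 and 11440 in WT cDC2, and 10820 to 11520 over all 12 arrays. Rpl3l, a muscle paralog of Rpl3, ranged from 23.92 to 32.03, Rpl10l, a testis paralog of Rpl10, from 18.94 to 29.88, and Rpl39l from 13.80 to 24.42. These 3 were the dimmest. The group means of a tested member spanned 0.20 on the log2 scale at the median, against 0.33 for all genes tested, and only Rps4l, Rps27l, Rpl14 and Rpl28 spanned more than 0.5.

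**Figure D1:**
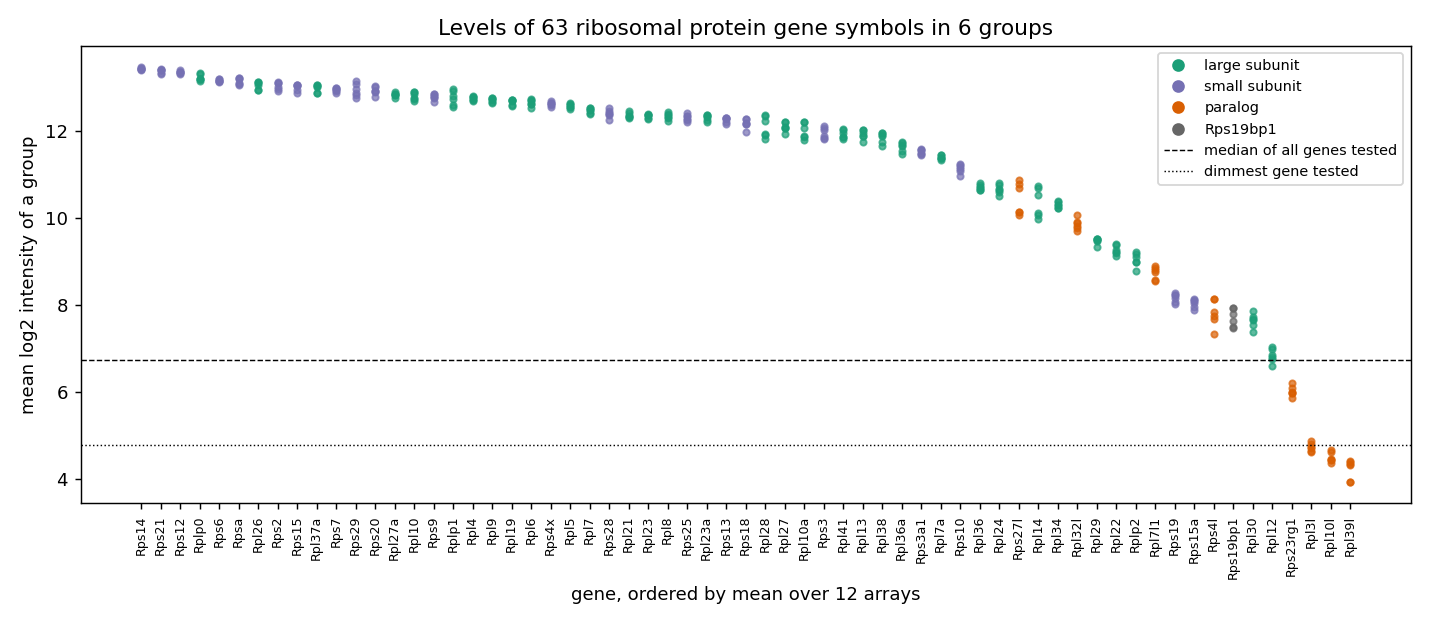
Mean log2 intensity of each of the 63 symbols (horizontal axis, ordered by their mean) in each of the 6 groups (points), coloured by class. Most subunit genes lie far above the dashed median of all genes tested (6.75), and the 3 paralogs at the right have means over all arrays below the dotted line of the dimmest gene tested (4.78), though Rpl3l lies above it in some groups. Vertical spread at 1 symbol is the difference between groups.

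Flt3 followed the genotype labels. It was 6.32-fold lower in Flt3 KO than in WT cDC1 (adjusted p = 5.26e-10) and 4.93-fold lower in cDC2 (adjusted p = 3.17e-09). The Flt3l probe set read 112.7 to 149.2 in WT and 109.0 to 128.9 in Flt3L KO, with both Flt3L KO arrays above WT in cDC1 (119.4 and 128.9 against 113.6 and 112.7) and below WT in cDC2 (109.0 and 117.9 against 144.6 and 149.2). Whether it lies in the deleted part is not given, so it gives no check of the Flt3L KO labels. The 8 cDC1 markers summed to 12610 to 14410 on cDC1 arrays and 1297 to 1701 on cDC2 arrays, and the 8 cDC2 markers to 458.4 to 523.8 and 6512 to 7296. Array medians were 58.96 to 62.97. Replicate 1 of WT cDC1 stood apart, with a 25th percentile of 25.73 against 23.31 to 24.31 on the others. A fit across all genes (limma, 1 mean per group over the 12 arrays) gave the tests below, and a gene is called when its Benjamini-Hochberg adjusted p was under 0.05.

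Most ribosomal protein genes were not called between the cell types, and those called were mainly higher in cDC1. In WT, 13 of the 60 members were called between cDC1 and cDC2, where 39.4% of all genes tested were called. Of the 13, 11 were higher in cDC1, against 21% of all genes, and 2 were lower, against 18.4%. Both cDC1 arrays were above both cDC2 arrays for 29 members, against 39.1% of all genes, and below them for 3, against 27.4%. Among the 43 members with a mean log2 value above 11, 5 were called, against 448 of the 700 brightest other genes. The median log2 difference, cDC1 minus cDC2, was 0.071 for the members and 0.066 for all genes. In Flt3 KO, 7 members were called, all higher in cDC1, against 35.5% of all genes in either direction and 19.1% higher. In Flt3L KO it was again 7, all higher, against 34.8% and 18.9%. Medians there were 0.071 and 0.057, with 0.005 and 0.008 for all genes. Rpl10a, Rpl14, Rpl28, Rps4l, Rps27l and Rps29 were called in each of the 3 genotypes, and 5 members in WT alone. The shares of all genes called in all 3 genotypes or in WT alone were not counted, so these counts stand without a background. The WT count was 8 without replicate 2 of WT cDC2, and the Flt3L KO count was 4 without any 1 of its arrays. With a trended and robust variance prior the counts were 20, 16 and 17. None of these counts, without an array or under that prior, is set here against the share of all genes called in the same setting.

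**Figure D2:**
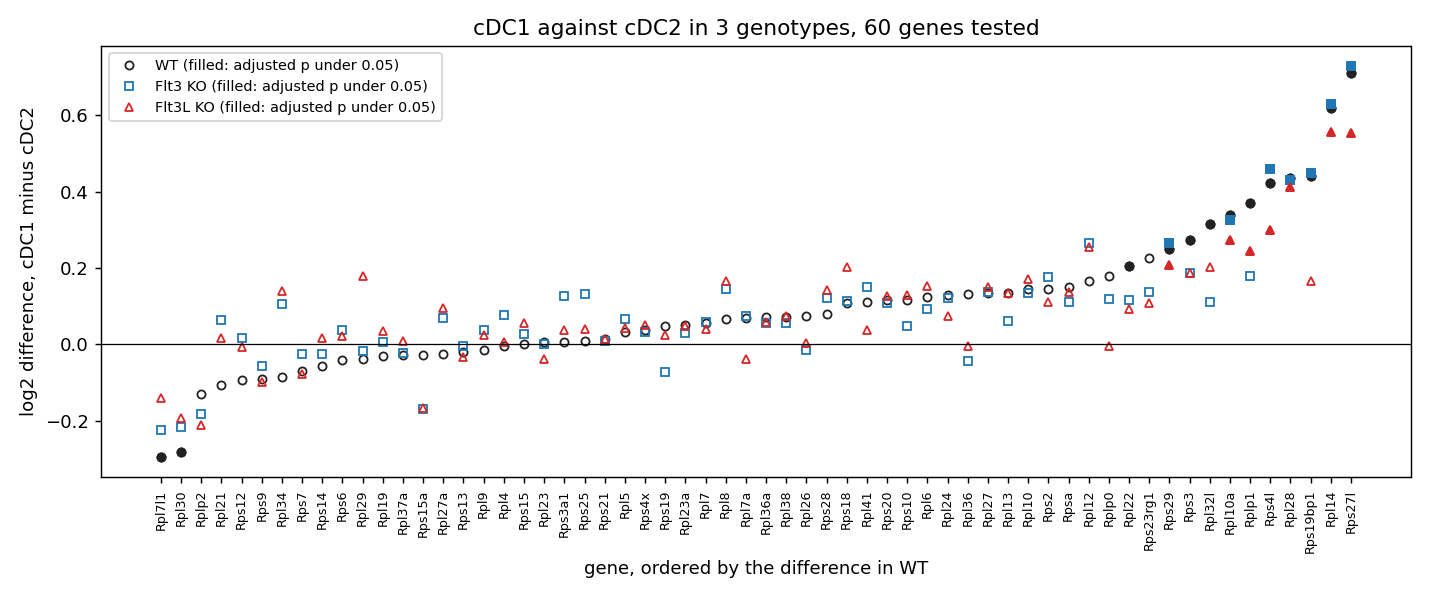
Log2 difference, cDC1 minus cDC2 (vertical axis), of the 60 tested members ordered by their difference in WT (horizontal axis), with 1 symbol per genotype, filled where the adjusted p was under 0.05. Rps27l, Rpl14 and Rpl28 lie above 0.4 in all 3 genotypes, and all 6 members called in every genotype lie above 0 throughout.

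Among the large subunit genes, 5 were higher and 1 lower in WT cDC1. Rpl14 had intensities of 1562 and 1777 in WT cDC1 and 1109 and 1063 in WT cDC2. In Flt3 KO these were 1656 and 1801 against 1244 and 1000, and in Flt3L KO 1429 and 1543 against 995.8 and 1023. Every cDC1 array was above every cDC2 array. The log2 difference was 0.62 ± 0.11 (SE) in WT, a 1.53-fold difference (adjusted p = 0.000405), 0.63 ± 0.11 in Flt3 KO (adjusted p = 0.00037) and 0.56 ± 0.11 in Flt3L KO (adjusted p = 0.00101). Only 1 probe set names Rpl14 alone.

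Rpl28, a large subunit protein that budding yeast lacks, differed by nearly the same amount in the 3 genotypes. It read 5189 and 5423 in WT cDC1 against 3911 and 3938 in WT cDC2, 5251 and 5156 against 3978 and 3745 in Flt3 KO, and 4773 and 4937 against 3653 and 3649 in Flt3L KO. The ranges of the cell types did not overlap in any genotype. The differences were 0.43 ± 0.071 in WT (1.35-fold, adjusted p = 0.000299), 0.43 ± 0.071 in Flt3 KO (adjusted p = 0.000344) and 0.41 ± 0.071 in Flt3L KO (adjusted p = 0.000522). All 5 of its probe sets were called higher in cDC1 in every genotype.

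Rpl10a forms the flexible stalk beside the site where tRNA leaves the ribosome. Its intensities were 4639 and 4900 in WT cDC1 and 3814 and 3722 in WT cDC2, 4712 and 4799 against 3901 and 3688 in Flt3 KO, and 4105 and 4478 against 3548 and 3556 in Flt3L KO. Again all cDC1 arrays were above all cDC2 arrays. The difference was 0.34 ± 0.076 in WT (adjusted p = 0.00298), 0.33 ± 0.076 in Flt3 KO (adjusted p = 0.0041) and 0.27 ± 0.076 in Flt3L KO (adjusted p = 0.013), and all 4 probe sets were called higher in each. The Flt3L KO call was lost, at adjusted p from 0.0551 to 0.123, without replicate 1 or 2 of Flt3L KO cDC2 or replicate 2 of Flt3L KO cDC1.

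The opposite stalk, made of Rplp0, Rplp1 and Rplp2, recruits the elongation factors, and 1 of its 3 genes was called. Rplp1 read 8518 and 7712 in WT cDC1 and 6467 and 6086 in WT cDC2, a difference of 0.37 ± 0.079 (adjusted p = 0.00225). In Flt3 KO it read 7660 and 7878 against 6713 and 7000 (0.18, adjusted p = 0.10), and in Flt3L KO 7065 and 7319 against 5893 and 6261 (0.24 ± 0.079, adjusted p = 0.0291). The cDC1 arrays were the higher ones in each genotype. The Flt3L KO call was lost without either Flt3L KO cDC1 array (adjusted p = 0.0731 and 0.141) or replicate 1 of Flt3L KO cDC2 (adjusted p = 0.165), and under quantile normalization (0.14, adjusted p = 0.25). Rplp0, the scaffold of this stalk, differed by 0.18 ± 0.071 in WT (adjusted p = 0.061), with 10690 and 10150 in cDC1 against 9188 and 9211 in cDC2. Rplp2 differed by -0.13 ± 0.10 (adjusted p = 0.347), with overlapping arrays.

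Rpl22, which is needed for the development of some T cells in mice, was higher in WT cDC1 at 686.0 and 679.7 against 606.9 and 577.7 in cDC2 (0.21 ± 0.073, adjusted p = 0.0403). That call was lost without any 1 of the 4 WT arrays, at adjusted p from 0.0679 to 0.207. Rpl30, a protein at the interface of the subunits, was the only large subunit gene called lower, with 160.5 and 176.5 in WT cDC1 against 205.4 and 203.8 in WT cDC2 (-0.28 ± 0.094, adjusted p = 0.0314). A brighter probe set that names Rpl30 and other genes differed by -0.052 (adjusted p = 0.615), so this call holds for the dim probe set only. It was also lost without replicate 1 of WT cDC1 (adjusted p = 0.172) and without either WT cDC2 array (adjusted p = 0.112 and 0.104).

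Of the 21 small subunit genes, 2 were higher in WT cDC1 and none lower. Rps29, a zinc-binding protein of the head of the small subunit, read 8742 and 8771 in WT cDC1 and 7603 and 7131 in WT cDC2. It read 8994 and 9185 against 7793 and 7345 in Flt3 KO, and 7845 and 8223 against 6931 and 6965 in Flt3L KO. The cell types did not overlap within a genotype. Differences were 0.25 ± 0.073 in WT (adjusted p = 0.0158), 0.27 ± 0.073 in Flt3 KO (adjusted p = 0.0122) and 0.21 ± 0.073 in Flt3L KO (adjusted p = 0.0418), with all 4 probe sets called in each. This was the least stable of the 6 shared calls among the settings tried. In WT it was lost without replicate 2 of cDC2 (adjusted p = 0.127), in Flt3 KO without replicate 2 of cDC1 or of cDC2 (adjusted p = 0.0752 and 0.0946), and in Flt3L KO without any 1 of the 4 arrays (adjusted p from 0.0783 to 0.202). Quantile normalization gave 0.18 in WT (adjusted p = 0.0813) and 0.16 in Flt3L KO (adjusted p = 0.137).

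Rps3 lines the channel through which mRNA enters. It read 4412 and 4506 in WT cDC1 and 3765 and 3622 in WT cDC2 (0.27 ± 0.072, adjusted p = 0.00886), and the call was lost without replicate 2 of WT cDC2 (adjusted p = 0.0702). In both knockouts the difference was 0.19 ± 0.072 (adjusted p = 0.0614 in Flt3 KO and 0.0622 in Flt3L KO). Rps6, the protein that the S6 kinases phosphorylate, differed by -0.041 ± 0.075 in WT (adjusted p = 0.701), with values from 8793 to 9642 over the 12 arrays. Rpsa, also known as the laminin receptor, read 9695 and 9597 in WT cDC1 against 8900 and 8507 in cDC2 (0.15 ± 0.071, adjusted p = 0.117). Of the 5 probe sets of Rpsa, 4 were called higher in WT cDC1, so the brightest one gave the smaller answer.

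Of the 5 paralogs tested, 3 were higher and 1 lower in WT cDC1. Rps27l, a paralog of Rps27 and a known target of p53, gave 1657 and 1892 in WT cDC1 and 1114 and 1051 in WT cDC2. The values were 1944 and 1808 against 1154 and 1107 in Flt3 KO, and 1708 and 1603 against 1130 and 1126 in Flt3L KO. No cDC2 array exceeded 1154 and no cDC1 array was under 1603. The difference was 0.71 ± 0.085 in WT (1.64-fold, adjusted p = 1.88e-05), 0.73 ± 0.085 in Flt3 KO (1.66-fold, adjusted p = 1.58e-05) and 0.55 ± 0.085 in Flt3L KO (1.47-fold, adjusted p = 0.000187). It was the largest difference of any member in WT and in Flt3 KO.

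Rps4l, a near copy of Rps4x, was higher in cDC1 in WT (0.42 ± 0.085, adjusted p = 0.00145), Flt3 KO (0.46 ± 0.085, adjusted p = 0.000816) and Flt3L KO (0.30 ± 0.085, adjusted p = 0.0142). The Flt3L KO call was lost without replicate 1 of Flt3L KO cDC1 (adjusted p = 0.171) or replicate 2 of Flt3L KO cDC2 (adjusted p = 0.116). Its 2 probe sets disagreed in size, 0.071 and 0.42 in WT, and 1 of them was called there. Rpl32l read 1097 and 1070 in WT cDC1 and 844.2 and 899.1 in WT cDC2 (0.31 ± 0.097, adjusted p = 0.0203). This call was lost without replicate 1 of WT cDC1 (adjusted p = 0.0749) or of WT cDC2 (adjusted p = 0.123). Rpl7l1, a paralog of Rpl7, was lower in WT cDC1, at 355.5 and 397.2 against 447.6 and 475.6 (-0.30 ± 0.083, adjusted p = 0.0125), and that call was lost without replicate 1 of WT cDC1 (adjusted p = 0.0966) or replicate 2 of WT cDC2 (adjusted p = 0.0977). Rps23rg1, a retrogene of Rps23, differed by 0.23 ± 0.17 (adjusted p = 0.313) on overlapping arrays. Rps19bp1, the binding protein, was higher in WT cDC1 (0.44 ± 0.082, adjusted p = 0.00078) and Flt3 KO cDC1 (0.45 ± 0.082, adjusted p = 0.00073). Paralogs and near copies share sequence with their parent genes, so the reading of each is uncertain where probes cross-hybridise.

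**Figure D3:**
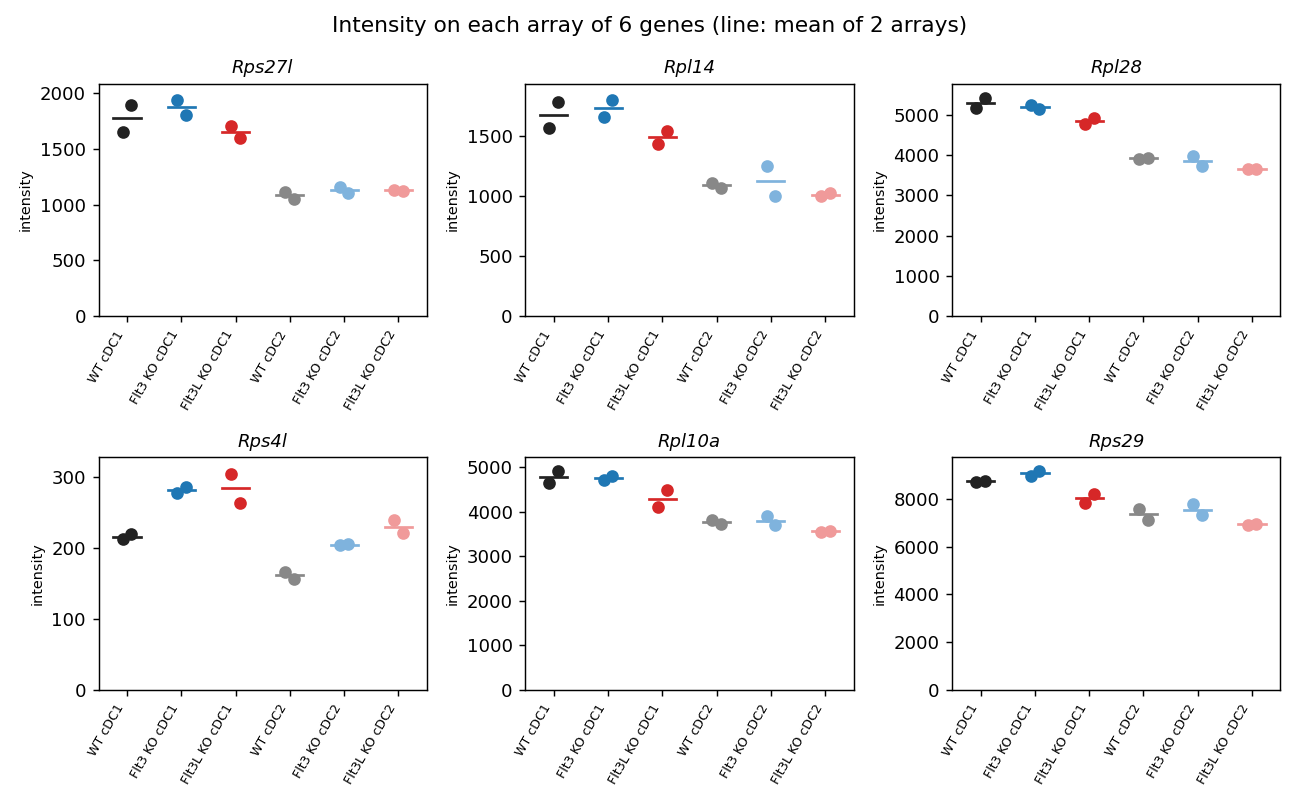
Intensity on each array (points) and the mean of the 2 arrays (line) in the 6 groups for the 6 members called between cDC1 and cDC2 in all 3 genotypes, with axes from 0. Within each genotype the cDC1 points lie above the cDC2 points, and Rps4l also lies higher in both knockouts than in WT.

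Lists of genes that build or control ribosomes are given beside the same background, in which 39.4% of all genes were called in WT, 21% higher in cDC1 and 18.4% lower. Of 77 mitochondrial ribosomal protein genes, which serve the separate ribosome of mitochondria, 37 were higher and 1 lower in WT cDC1, with a median difference of 0.27 against 0.066 for all genes. Mrpl18 (1.01 ± 0.088, adjusted p = 1.1e-06) and Mrps12 (0.72 ± 0.074, adjusted p = 5.02e-06) were among them. For RNA polymerase I, which transcribes ribosomal RNA, 7 of 15 genes were higher and 2 lower, with Polr1d at 0.68 ± 0.082 (adjusted p = 2.33e-05) and Polr1a at 0.69 ± 0.094 (adjusted p = 5.8e-05). Among 49 assembly factors of the large subunit, 19 were higher and 5 lower, and Sdad1 differed by 1.78 ± 0.087 (adjusted p = 3.86e-09). Among 46 assembly factors of the small subunit, 10 were higher and 7 lower, with Fbl, the rRNA methyltransferase fibrillarin, at 0.59 ± 0.071 (adjusted p = 2.23e-05) and the helicase Dhx37 at -0.67 ± 0.076 (adjusted p = 1.13e-05).

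Of 25 translation factor genes whose mRNAs are known for TOP tracts, 9 were higher, against 21% of all genes, and 1 lower, against 18.4%. Their total lay near the 39.4% of all genes called in either direction, and their median was 0.11. Eef1b2, a subunit of the exchange factor of elongation, was 2.05-fold higher in WT cDC1 (1.04 ± 0.074, adjusted p = 1.55e-07). The higher genes included 7 subunits of the initiation factor eIF3. Of 21 genes of mTOR and MYC control, 4 were higher and 6 lower. Myc itself was lower (-1.18 ± 0.11, adjusted p = 1.53e-06) while its relative Mycl was higher (1.37 ± 0.092, adjusted p = 8.36e-08). Larp1, which binds TOP tracts, was higher (0.51 ± 0.092, adjusted p = 0.000566), and Eef2k, the kinase that slows elongation, was lower (-0.97 ± 0.092, adjusted p = 2.18e-06). Of the 5 S6 kinase family genes tested, 3 were lower and none higher, among them Rps6ka5 (-0.44 ± 0.075, adjusted p = 0.000378).

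Loss of Flt3 called none of the members. In Flt3 KO cDC1 against WT cDC1, limma called 0 of 60, where 0.0803% of all genes were called. At an unadjusted p under 0.05 there were 2 members, against 12.5% of all genes. The median log2 difference, Flt3 KO minus WT, was 0.009. In cDC2 limma again called 0, where 0.107% of all genes were called, with a median of 0.006. At an unadjusted p under 0.05 there was 1 member, against 7.28% of all genes. The smallest p-values belonged to Rps4l, Rpl30 and Rpl34 in cDC1 and to Rps4l, Rpl30 and Rplp1 in cDC2. Rpl30 differed by 0.26 ± 0.094 (adjusted p = 0.312) in cDC1 and 0.20 ± 0.094 (adjusted p = 0.706) in cDC2, but its brighter probe set that names several genes gave 0.025 and -0.032. Rpl34 differed by 0.18 ± 0.091 (adjusted p = 0.43) and Rplp1 by 0.13 ± 0.079 (adjusted p = 0.822). Without replicate 2 of WT cDC1, 1 member was called in cDC1, Rps4l (adjusted p = 0.0363).

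Rps4l was the only member called between a knockout and WT in this fit. With the trended and robust prior, Rpl26 in cDC1 (-0.19, adjusted p = 0.0297) and Rps15 and Rpl37a in cDC2 (-0.17 and -0.17, adjusted p = 0.042 and 0.0453) were also called, all lower in Flt3L KO. Rps4l read 212.1 and 219.4 in WT cDC1, 276.9 and 285.9 in Flt3 KO cDC1, and 304.5 and 263.0 in Flt3L KO cDC1. In cDC2 it read 165.5 and 156.5 in WT, 204.5 and 204.7 in Flt3 KO, and 238.9 and 221.0 in Flt3L KO. All knockout arrays were above both WT arrays of their cell type. Against WT, the Flt3L KO difference was 0.39 ± 0.085 in cDC1 (1.31-fold, adjusted p = 0.0494) and 0.51 ± 0.085 in cDC2 (1.43-fold, adjusted p = 0.00965). The Flt3 KO difference was 0.38 ± 0.085 in cDC1 (adjusted p = 0.167) and 0.35 ± 0.085 in cDC2 (adjusted p = 0.25). Both knockouts were compared with the same WT arrays.

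The call for Rps4l in Flt3L KO cDC1 lay at the threshold. It was lost under quantile normalization (0.36, adjusted p = 0.0509), with the mean of its 2 probe sets (0.28, adjusted p = 0.103), and without replicate 1 of WT cDC1 (0.37, adjusted p = 0.124) or either Flt3L KO cDC1 array (0.29 and 0.50, adjusted p = 0.308 and 0.0531). In cDC2 it was lost with the mean of the probe sets (0.32, adjusted p = 0.0642), without either WT cDC2 array (0.55 and 0.47, adjusted p = 0.0539 and 0.107) and without replicate 1 of Flt3L KO cDC2 (0.46, adjusted p = 0.0966). The less bright probe set of Rps4l differed by 0.18 in cDC1 and 0.13 in cDC2.

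Apart from Rps4l, the members lay slightly below WT in Flt3L KO, as a group and not gene by gene. In cDC1, limma called 1 of 60 members (Rps4l) against 1.19% of all genes. At an unadjusted p under 0.05 there were 12 members, near the background of 17.1% of all genes. The log2 difference, Flt3L KO minus WT, was below 0 for 51 of 60 members. It was below 0 for 7940 of the 14953 genes tested and 401 of the 700 brightest other genes. Its median was -0.10 for the members and -0.012 for all genes. In cDC2, limma called 1 (Rps4l) against 1.95% of all genes, and 8 members were at an unadjusted p under 0.05, near the 14.6% of all genes. There too 51 of 60 were below 0, against 6648 of the 14953 genes tested and 378 of the 700 brightest other genes. The median was -0.085 for the members and 0.018 for all genes. Both Flt3L KO arrays were below both WT arrays for 40 members in cDC1 and 41 in cDC2, against 21.2% and 21.4% of all genes and 36.4% and 34.6% of the 700 brightest other genes. For 28 members this held in both cell types, against 5.74% of all genes. The brightest other genes, with larger shares in each cell type, were not counted for both together. No member was called lower in this fit, against 0.415% of all genes in cDC1 and 0.91% in cDC2.

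Set against Flt3 KO, the values were alike. limma called 0 members in cDC1, where 0.883% of all genes were called, and 0 in cDC2, where it was 0.93%, with 6 and 8 at an unadjusted p under 0.05, against 15.8% and 12.7% of all genes. Medians of Flt3L KO minus Flt3 KO were -0.10 and -0.090, against 0.013 and 0.003 for all genes and -0.047 and -0.011 for the 700 brightest other genes. Arrays of Flt3L KO were below those of Flt3 KO for 43 members in cDC1 and 37 in cDC2, against 24.7% and 21.7% of all genes and 45% and 28% of the brightest other genes. These comparisons share the Flt3L KO arrays with those against WT and are not independent of them. Both Flt3L KO arrays were the lowest of the 6 arrays of their cell type for 36 members in cDC1 and 32 in cDC2, against 11.7% and 12.7% of all genes. The brightest other genes were not counted in this way.

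**Figure D4:**
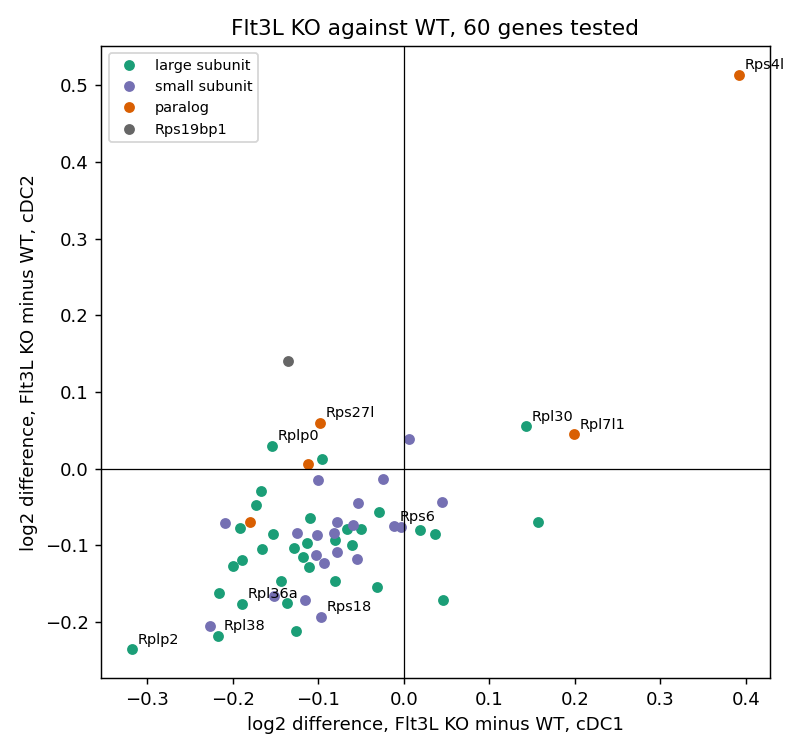
Log2 difference, Flt3L KO minus WT, of each of the 60 tested members in cDC1 (horizontal axis) and cDC2 (vertical axis), coloured by class. 46 points lie below 0 on both axes, against 23.8% of all genes, and Rps4l, at 0.39 and 0.51, stands alone at the upper right.

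Rpl38, a large subunit protein known for its part in translating Hox mRNAs, had similar differences in both cell types. It read 3825 and 4166 in WT cDC1, 4138 and 3891 in Flt3 KO cDC1, and 3364 and 3508 in Flt3L KO cDC1. In cDC2 it read 3818 and 3770 in WT, 4073 and 3652 in Flt3 KO, and 3231 and 3292 in Flt3L KO. The Flt3L KO arrays were the lowest in each cell type, and WT and Flt3 KO overlapped. Against WT the difference was -0.22 ± 0.081 in cDC1 (adjusted p = 0.202) and -0.22 ± 0.081 in cDC2 (adjusted p = 0.228), and all 4 probe sets were below 0 in both. Against Flt3 KO it was -0.22 (adjusted p = 0.207) and -0.24 (adjusted p = 0.225).

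Rplp2, the dim partner of Rplp1 in the stalk, had the most negative value against WT in cDC1. It read 571.4 and 529.5 in WT cDC1, 535.8 and 484.7 in Flt3 KO cDC1, and 446.6 and 436.2 in Flt3L KO cDC1, a difference of -0.32 ± 0.10 from WT (adjusted p = 0.147). In cDC2 it read 672.9 and 538.0 in WT and 507.6 and 514.2 in Flt3L KO (-0.24 ± 0.10, adjusted p = 0.313). Rpl36a, which lies by the tRNA exit site, read 3272 and 3543 in WT cDC1 against 2964 and 3011 in Flt3L KO cDC1, and 3442 and 3432 in Flt3 KO cDC1. Its difference from Flt3 KO was -0.20 ± 0.074 in cDC1 (adjusted p = 0.21). Rps18, in the head of the small subunit, read 4649 and 4633 in WT cDC2 and 4030 and 4089 in Flt3L KO cDC2 (-0.19 ± 0.079, adjusted p = 0.281). Against Flt3 KO in cDC2, Rps10 and Rpl13 each differed by -0.21 (adjusted p = 0.239 and 0.255). None of these differences passed the test.

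Some members lay near WT in 1 or both cell types. Rps6 read 8793 and 9632 in WT cDC1 and 8963 and 9310 in Flt3L KO cDC1 (-0.011 ± 0.075, adjusted p = 0.962). Rpsa differed by -0.024 ± 0.071 in cDC1 (adjusted p = 0.897) and -0.013 ± 0.071 in cDC2 (adjusted p = 0.963). Rplp0 differed by -0.15 ± 0.071 in cDC1 (adjusted p = 0.291) and 0.030 ± 0.071 in cDC2 (adjusted p = 0.895). By class, 28 of 33 large subunit genes and 19 of 21 small subunit genes were below WT in Flt3L KO cDC1, and 30 and 20 in cDC2. Of the 5 paralogs tested, 3 were below 0 in cDC1 and 1 in cDC2. Among all 14953 genes tested, 7940 were below 0 in cDC1 and 6648 in cDC2.

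The size of this difference depended on how the arrays were scaled. Each member's log2 value was set against its mean over the 12 arrays, and the median over the 60 members taken for each array. It was 0.029 and 0.091 in WT cDC1, 0.090 and 0.057 in Flt3 KO cDC1, and -0.046 and 0.004 in Flt3L KO cDC1. In cDC2 it was 0.000 and 0.002 in WT, 0.029 and -0.031 in Flt3 KO, and -0.105 and -0.081 in Flt3L KO. Both Flt3L KO arrays were the lowest of their cell type, and the pooled SD within groups was 0.031. Under quantile normalization the median difference from WT was -0.042 in cDC1 and -0.045 in cDC2, and the members with arrays below both WT arrays numbered 31 and 25. The shares of all genes under that scaling are not given here, so 31 and 25 stand without a background. Without replicate 2 of WT cDC1 the cDC1 median was -0.057. The 700 brightest other genes had medians of -0.026 and -0.013 against WT.

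**Figure D5:**
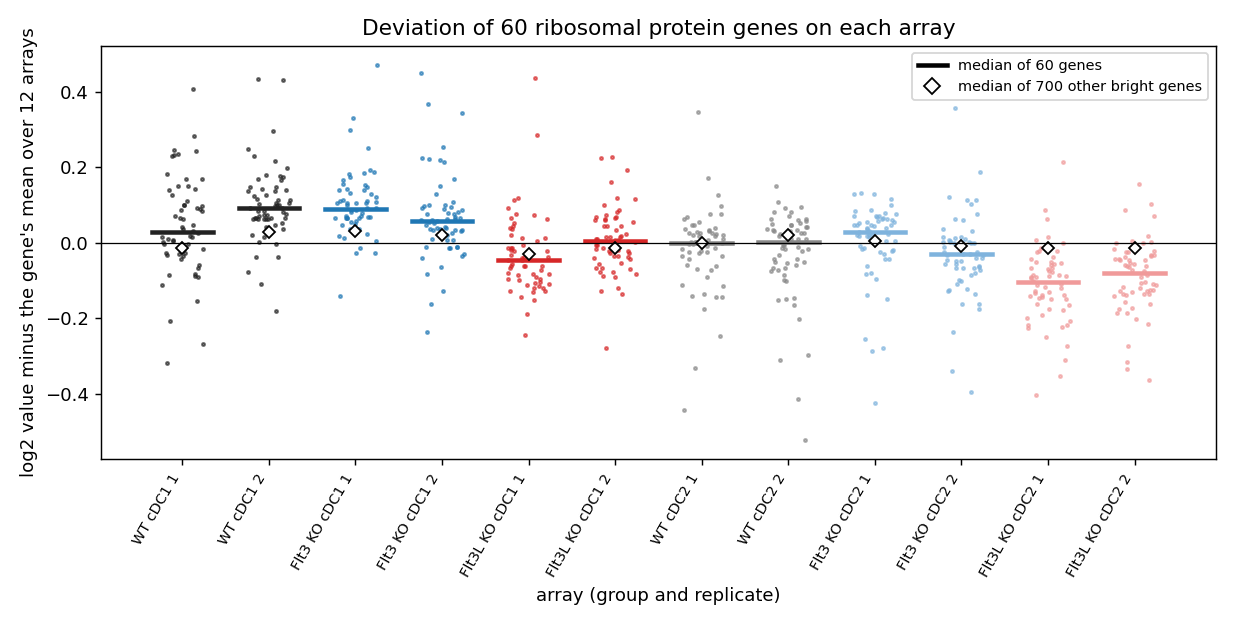
Log2 value minus the gene's mean over the 12 arrays (vertical axis) for the 60 tested members (points) on each array (horizontal axis). Bars give the median of the members and diamonds that of the 700 brightest other genes. In Flt3L KO cDC2 the bars lie at -0.105 and -0.081 and the diamonds near 0.

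Ribosomal protein probe sets that name several genes were also mostly below WT in Flt3L KO. Of the 20 ribosomal protein symbols found only there, such as Rpl3, Rpl11, Rps16 and Rps24, the brightest probe set of each gave 18 distinct probe sets, since some symbols share one, which were tested in a fit over 22633 probe sets. In Flt3L KO against WT, 17 of 18 were below 0 in cDC1 (median -0.15) and 18 of 18 in cDC2 (median -0.13). None was called, where 0.632% and 1.27% of all probe sets were called. In Flt3 KO against WT, 7 and 8 of 18 were below 0, with medians of 0.004 and 0.006. How many of all 22633 probe sets were below 0 was not counted. Between cDC1 and cDC2 in WT, 3 of the 18 were called higher in cDC1 and none lower, where 33.3% of all probe sets were called. In Flt3 KO 2 were higher and none lower, against 29.2%. In Flt3L KO 3 were higher and 2 lower, against 28.6%, the lower ones being those of Rpl22l1 (-0.49, adjusted p = 0.0141) and Rps27 (-0.27, adjusted p = 0.0175).

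Translation factor genes with TOP mRNAs had medians of -0.060 and -0.054 in Flt3L KO against WT, with 17 and 20 of 25 below 0. Of all 14953 genes tested, 7940 in cDC1 and 6648 in cDC2 were below 0, and 1.19% and 1.95% were called. Eif3m, a subunit of eIF3, was lower in cDC1 (-0.51 ± 0.099, adjusted p = 0.0333), and no other gene of this list was called in either cell type. The 77 mitochondrial ribosomal protein genes had medians of -0.060 in cDC1 and 0.033 in cDC2, with Mrpl17 and Mrpl42 called lower in cDC2. Among the 21 mTOR and MYC genes, Rptor (0.36 ± 0.076, adjusted p = 0.049) and Eif4ebp2 (0.36 ± 0.078, adjusted p = 0.0491) were higher in Flt3L KO cDC1. The helicase Dhx37 was the only assembly factor called, higher in cDC1 (0.52 ± 0.076, adjusted p = 0.00648).

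Markers of macrophages were higher on the Flt3L KO cDC2 arrays, and less so on the Flt3 KO cDC2 arrays, than in WT. All 6 such genes (C1qa, C1qb, C1qc, Vcam1, Spic and Mertk) lay above WT cDC2 in Flt3L KO cDC2. Of these, 5 were called higher, against 155 of 14953 genes tested. For Flt3 KO against WT in cDC2, 2 of the 6 were called higher, against 12 of 14953. Intensities of the 6 summed to 1720 to 2148 in Flt3L KO cDC2, 901.4 to 1051 in Flt3 KO cDC2 and 592.2 to 616.9 in WT cDC2. In cDC1 the sums were 507.0 to 524.7 in Flt3L KO and 468.6 to 474.2 in WT, with none of the 6 called. The 10 cycling genes summed to 2896 to 3455 in Flt3L KO cDC2 and 2480 to 2621 in WT cDC2, again with none called. Among the 8 cDC1 markers, Irf8 and Cadm1 were called higher in Flt3L KO than in WT cDC2. In that list 3 of the 8 had a difference below 0, with a median of 0.11. Among the 8 cDC2 markers Clec4a4 was called lower, against 136 of 14953 genes. There 6 of the 8 were below 0, with a median of -0.25. In cDC1, the cDC1 marker Tlr3 was lower in Flt3L KO (-0.69 ± 0.14, adjusted p = 0.0455), and the 8 cDC1 markers summed to 12610 to 12910 against 13690 to 14410 in WT. None of these markers was listed at 0, and their part in the values of the ribosomal protein genes was not tested. In sorted bulk samples, a change in the mix of cells and a change within each cell cannot be told apart.

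No member was called when the effect of a knockout was compared between the cell types. The test of the difference between the Flt3 KO effects in cDC2 and cDC1 called 0 members and 0 of all genes, with 0 members at an unadjusted p under 0.05. The smallest p-values were those of Rpl36 (0.18 ± 0.10, adjusted p = 0.609), Rplp1 (0.19 ± 0.11, adjusted p = 0.614) and Rpl32l (0.20 ± 0.14, adjusted p = 0.649). For Flt3L KO, limma called 0 members against 0.495% of all genes, with 1, Rps19bp1, at an unadjusted p under 0.05 (0.28 ± 0.12, adjusted p = 0.298). Rplp0 (0.18 ± 0.10, adjusted p = 0.412) and Rpl29 (-0.22 ± 0.12, adjusted p = 0.43) followed. The difference for Rps27l was 0.16 ± 0.12 (adjusted p = 0.551) and for Rps4l 0.12 ± 0.12 (adjusted p = 0.655). A p that misses the threshold does not show that the effects were alike.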

How the data were processed

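The authors deposited a value table of linear-scale intensities with a column for each array, and these were used unchanged; RNA was amplified and labelled with the Ambion WT Expression kit and a GeneChip terminal labelling kit, per the labels' protocols. The summarisation and normalization are not given in the sources used here, and no scan dates or batches are named. The table held 30177 probe sets, of which 21789 name 1 gene, 1621 several and 6767 none in the platform's probe table; 21698 symbols were checked by Entrez ID against RefSeq and 0 changed. The probe set with the highest mean stood for a gene. Genes in the lowest 0.25 of mean log2 intensity were left out (Flt3 kept), leaving 14953 tested.

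Log2 values were fitted with limma 3.58.1 in R 4.3.3 (1 mean per group, 12 arrays, 6 residual degrees of freedom, eBayes), with Benjamini-Hochberg adjustment within a comparison over all genes tested and a threshold of 0.05. Errors are limma's standard errors. The fit was tested on simulated data. The members and lists were chosen with earlier results of these data known. Named per comparison were the called members with the 6 largest rises and falls, or the 3 smallest p-values where fewer than 3 were called, plus Rplp0, Rplp1, Rplp2, Rpsa, Rps6, the paralogs and the 3 brightest and dimmest members; from each related list, genes with the smallest p. Rpl26, Rps15, Rpl37a, Rpl22l1, Rps27 and the single marker genes were named after their values were seen. Alternatives were other scalings, filters, variance priors, probe set rules, the replicate number as a block, only the arrays compared, and each array left out in turn.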

Additional observations from a re-analysis of the deposited data

How the results depend on the processing

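Counts of called members moved most with the variance prior. Counts in this section lack the share of all genes under the same setting, so they do not compare members with other genes. With a trended and robust prior they were 20 (WT cDC1 against cDC2), 16 (Flt3 KO) and 17 (Flt3L KO), 2 and 3 for Flt3L KO against WT in cDC1 and cDC2, and 4 for Flt3L KO against Flt3 KO in cDC2. With only the arrays compared, the WT count was 8. With probe sets of several symbols added (chosen after seeing the data) the Flt3L KO count between cell types was 12 of 78, and members below WT and below Flt3 KO without overlap in Flt3L KO cDC2 were 63 and 57 of 78. The single call in Flt3L KO cDC1 against WT became 0 under quantile normalization, centring on the median of all genes, no filter on dim genes, the mean of probe sets, the replicate block and only the arrays compared; the one in cDC2 became 0 with the mean of probe sets. Quantile normalization gave medians of 0.026 for Flt3 KO cDC1 against cDC2, -0.042 and -0.045 for Flt3L KO against WT, and -0.043 and -0.041 against Flt3 KO, and non-overlap counts of 25 and 23 in cDC2; centring on the brightest other genes gave -0.057 for Flt3L KO against Flt3 KO in cDC1.

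Leaving out 1 array at a time gave 8 to 12 calls between WT cell types, 6 to 8 in Flt3 KO and 4 to 4 in Flt3L KO, 0 to 1 for Flt3 KO against WT in cDC1, 0 to 1 for Flt3L KO against WT in each cell type, and 0 in the other comparisons. Medians ranged from 0.033 to 0.110 (WT cell types), 0.029 to 0.105 (Flt3 KO), 0.044 to 0.092 (Flt3L KO), -0.023 to 0.052 (Flt3 KO against WT, cDC1), -0.020 to 0.034 (cDC2), -0.132 to -0.057 (Flt3L KO against WT, cDC1), -0.102 to -0.077 (cDC2), and -0.133 to -0.078 and -0.122 to -0.053 against Flt3 KO. The lone array of a group was then assumed to vary like the other groups. Not every lost call between cell types is named above. Of 15 settings in all, the WT call was lost in 7 for Rpl22, 5 for Rpl30 and 2 for Rps3. It was lost in 3 each for Rps29, Rpl32l and Rpl7l1. The Flt3L KO call was lost in 9 for Rps29, 5 for Rplp1 and 3 for Rps4l. No result changed sign among called values, and the causes of these moves were not tested.

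To look for pairing by replicate number, the difference of replicate 1 minus replicate 2 was correlated across genes between groups. The values of r ran from -0.199 to 0.172. Between cDC1 and cDC2 of the same genotype, r was 0.159 for WT, 0.088 for Flt3 KO and 0.146 for Flt3L KO. Such low values do not settle whether arrays with the same replicate number were paired. The replicate block gave 13, 7 and 6 calls between cell types, 0 and 1 for Flt3L KO against WT, and crossed numbers 13, 8 and 7. With 2 arrays per group, small differences are not resolved.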
